A study of Homo sapiens with 8 samples.

Results

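HaCaT cells are an established line of immortalised human keratinocytes. The data compared here are the whole measured transcriptome of HaCaT cells that carried a LacZ adenovirus, with and without TGF-beta3. LacZ encodes a bacterial beta-galactosidase and is the control vector of the study. The pair makes up 2 of the 8 arrays of the series and was chosen by its titles. The untreated LacZ sample had no TGF-beta3, and the treated LacZ sample had TGF-beta3 at 5 ng/ml for 24 h. The other adenovirus samples carried either HRAS G12V, known as an active form of the GTPase, or HRAS N116Y, known as a dominant negative form, again without and with the same TGF-beta3 dose and time. All 6 adenovirus samples share the cell line, medium with fetal bovine serum and an adenoviral infection, and no uninfected pair enters here. The other 2 samples, with siRNA and no TGF-beta3, were not used for any result.

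Each group is 1 array, and nothing in the labels describes replicate cultures. The LacZ comparison therefore has no test. Its values are log2 ratios between 2 arrays. One label field gives the opposite TGF-beta3 state for the adenovirus samples, whereas the titles and the stimulation field match each other and were followed. The array of the LacZ sample titled as treated held the higher signals of known TGF-beta target genes, given below.

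TGF-beta ligands bind a complex of type I and type II receptor kinases, which phosphorylate SMAD proteins that then enter the nucleus with SMAD4. In keratinocytes the pathway is known for stopping cell division, for raising matrix proteins and the proteases that cut them, and for acting together with AP-1, a transcription factor made of JUN and FOS proteins. It also reaches kinases and phosphatases outside the SMAD route.

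Of 19775 genes with a named probe set, 8879 were measured, meaning a scaled signal of at least 50 on 1 LacZ array. Signals are relative units in which each array has a trimmed mean of 100, and signals under 20 were set to 20. A gene can count as measured through its brighter array alone. At this floor lay 36 measured genes on the untreated array and 12 on the TGF-beta3 array. The median log2 ratio of the measured genes was -0.01, with an SD of 0.60. Of the measured genes, 74.6% lay under 1.5-fold apart. With TGF-beta3, 377 genes reached 2-fold above the untreated array (4.25% of the measured genes) and 387 reached 2-fold below it (4.36%). Gains reached further than losses: 60 genes against 11 were at least 4-fold apart, and 7 against 1 at least 8-fold.

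**Figure D1:**
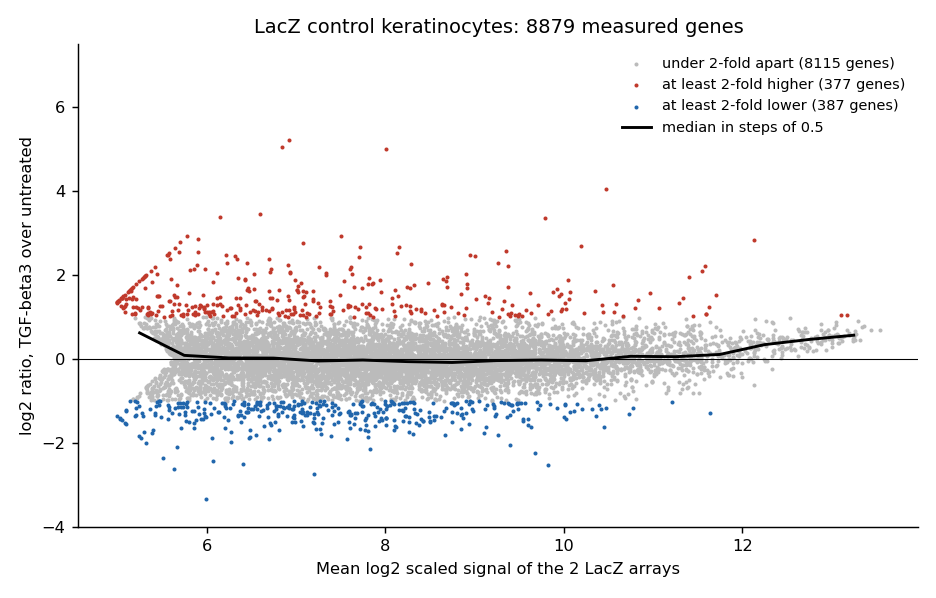
Each point is 1 of 8879 measured genes, with the mean log2 scaled signal of the 2 LacZ arrays on the horizontal axis and the log2 ratio of TGF-beta3 over untreated on the vertical axis. Red points (377) were at least 2-fold higher and blue points (387) at least 2-fold lower. The black line is the median in steps of 0.5, which lies near 0 over most of the range and above 0 at its right end.

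With 1 array a side, the size of a ratio was set beside 2 measured spreads. Probe sets of the same gene differed in their LacZ log2 ratio with a pooled SD of 0.29, over 3971 genes. They are read on the same 2 arrays, so this spread and their agreement hold no spread among arrays or cultures. Between the untreated HRAS G12V and untreated LacZ arrays, which differ in vector, the SD was 0.28. Between those arrays 0.40% of 8660 genes were at least 2-fold apart (14 higher, 21 lower), against 8.6% in the LacZ pair.  Of the genes called in the LacZ pair, 276 had another measured probe set. In 268 of these every other probe set had the same direction, and in 157 every other one was at least 2-fold that way. In none was one at least 2-fold the other way. The other 488 called genes rest on 1 probe set each.

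**Figure D2:**
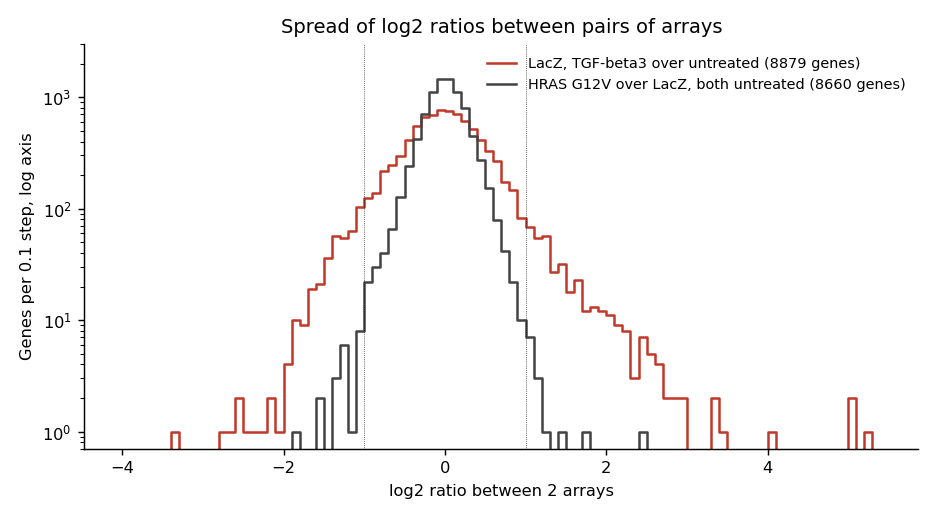
The lines count genes per 0.1 step of log2 ratio, on a log axis, for the LacZ pair (red, 8879 genes) and for untreated HRAS G12V over untreated LacZ (grey, 8660 genes). Dotted lines mark 2-fold, past which the LacZ pair holds 377 higher and 387 lower genes and the untreated pair 14 and 21.

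Bright probe sets need a separate reading. The untreated LacZ array had a highest signal of 9978, against 15184 on the treated one and 11112.5 to 14983.6 on the other adenovirus arrays. Genes with a signal of at least 4000 had a median log2 ratio of 0.43 in the LacZ pair. The same class of genes had a median of 0.33 for untreated HRAS G12V over untreated LacZ and near 0 when both had TGF-beta3. The same comparison was not made for HRAS N116Y, so which arrays the gap belongs to was not tested. It moves with the ratios of ribosomal proteins, keratins and S100A2, and its part in them was not tested beyond the values given with the intensity trend removed. Sample quality by the 3′ to 5′ signal ratio of ACTB was 1.21 untreated and 1.16 with TGF-beta3.

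The cells kept a keratinocyte profile on both arrays. Of 12 keratinocyte markers 9 had a named probe set and all 9 were measured, KRT5 at 3237 untreated and 3504 with TGF-beta3 and CDH1, the epithelial cadherin, at 3517 and 4181. All 9 ratios were above 0, with a median of 0.76 (0.41 with the intensity trend removed), and LAMB3 and ITGA6 were at least 2-fold higher. Of the fibroblast, endothelial and leukocyte markers none reached a signal of 50 on either LacZ array. Of the melanocyte markers MITF was measured, at 141.9 and 74.5. As a reference for what follows, 12 of 16 measured SMAD targets were at least 2-fold higher (median log2 ratio 1.59), and 21 of 24 measured division genes were at least 2-fold lower (median -1.31). In such bulk samples, fewer cells of a state and less RNA per cell cannot be told apart.

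The genes called in the LacZ pair were then looked up on the 4 HRAS arrays, which share no array with it. There the TGF-beta3 effect was fitted with limma in an additive model of vector and TGF-beta3, with Benjamini-Hochberg adjustment. Of 8817 genes tested, 11.9% rose and 12.1% fell (1051 and 1067 genes at an adjusted p under 0.05). Of the 377 genes higher in the LacZ pair, 328 were tested and 298 of those rose (90.9%), none fell and 30 did not pass. Of the 387 lower genes, 369 were tested and 327 fell (88.6%), none rose and 42 did not pass. Genes too dim on the HRAS arrays were left out of both shares by the filter on low signals. Signals with TGF-beta3 count towards that filter, so a higher gene dim when untreated was tested only if brighter there with TGF-beta3. Likewise, a lower gene dim with TGF-beta3 was tested only if brighter there when untreated. The 90.9% and 88.6% therefore hold for tested genes and may overstate the shares among all higher and all lower genes. The HRAS arrays are of other cells under the same treatment, not replicates of the LacZ culture. The fit has 1 residual degree of freedom and gives every gene the variance of a trend across genes, so single adjusted p-values are mostly left out. Its calls depend on the filter on low signals: with no filter it made 0 calls among 19775 genes, with 988 rising and 1011 falling at an unadjusted p under 0.05, and without the vector in the model it made 107 and 64. Below, rose and fell refer to this fit, with its log2 change and SE, and higher and lower to the LacZ pair. Counts of list members stand beside 4.25% higher and 4.36% lower of all measured genes. On the HRAS arrays they stand beside 11.9% rising and 12.1% falling of all tested genes. Short lists can lie off these shares through few genes.

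Several of the furthest gains were of genes for secreted proteases and matrix proteins, described here as single genes. MMP9, a gelatinase, had a signal of 45.5 untreated and 1464 with TGF-beta3, a 32.2-fold ratio, and it rose on the HRAS arrays by 4.80 ± 0.22 (SE). MMP10, a stromelysin, was at 19.9 and 738.7, which is at least 36.9-fold because the untreated signal lies under the floor. FN1, fibronectin, was at 348.3 and 5793, a log2 ratio of 4.06, and its 4 other probe sets gave 3.49 to 3.92. SERPINE2, an inhibitor of plasmin and thrombin, went with them at 277.0 and 2821, and PAPPA, a metalloprotease that cuts insulin-like growth factor binding proteins, at 29.4 and 319.9. Each of these 5 genes rose on the HRAS arrays.

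Some genes appeared from below the floor. PRR9, a proline-rich protein encoded in the epidermal differentiation complex, was at 18.5 untreated and 659.7 with TGF-beta3, at least 33.0-fold. WNT5B, a Wnt ligand, was at 8.2 and 125.6, at least 6.28-fold. TGM2, a transglutaminase that crosslinks matrix proteins, was at 5.7 and 112.0, at least 5.60-fold. All 3 rose on the HRAS arrays. IL11, a cytokine of the IL-6 family, was at 7.3 and 111.1 and was too dim on the HRAS arrays to be tested. The HRAS N116Y pair had IL11 at 6.7 and 27.8.

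Components and known targets of the pathway itself were also among the furthest gains. Other genes are given with them, of which PLAU and PLAUR had smaller ratios. LTBP2, a microfibril protein of the family named latent TGF-beta binding proteins, was at 22.0 and 230.0. TGFBI, a matrix protein named for its induction by TGF-beta, was at 1682 and 11965. INHBA, the activin A subunit, was at 220.8 and 1202, and PMEPA1, a feedback inhibitor of the pathway, at 459.8 and 2965. FLRT2, a membrane protein of cell adhesion and guidance, was at 66.0 and 502.9 and ANTXR2, an anthrax toxin receptor that binds matrix, at 112.9 and 715.6. PLAU, urokinase, was at 553.7 and 2022 and its receptor PLAUR at 541.8 and 1309. These 8 genes rose on the HRAS arrays.

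Among the furthest losses, TSPAN8, a tetraspanin, was at 201.7 and 19.3, at least 10.1-fold, since its treated signal lies under the floor. SLC16A7, a monocarboxylate transporter, was at 122.8 and 19.2, at least 6.14-fold for the same reason. LMNB1, a nuclear lamin, was at 592.1 and 171.1. All 3 fell on the HRAS arrays.

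**Figure D3:**
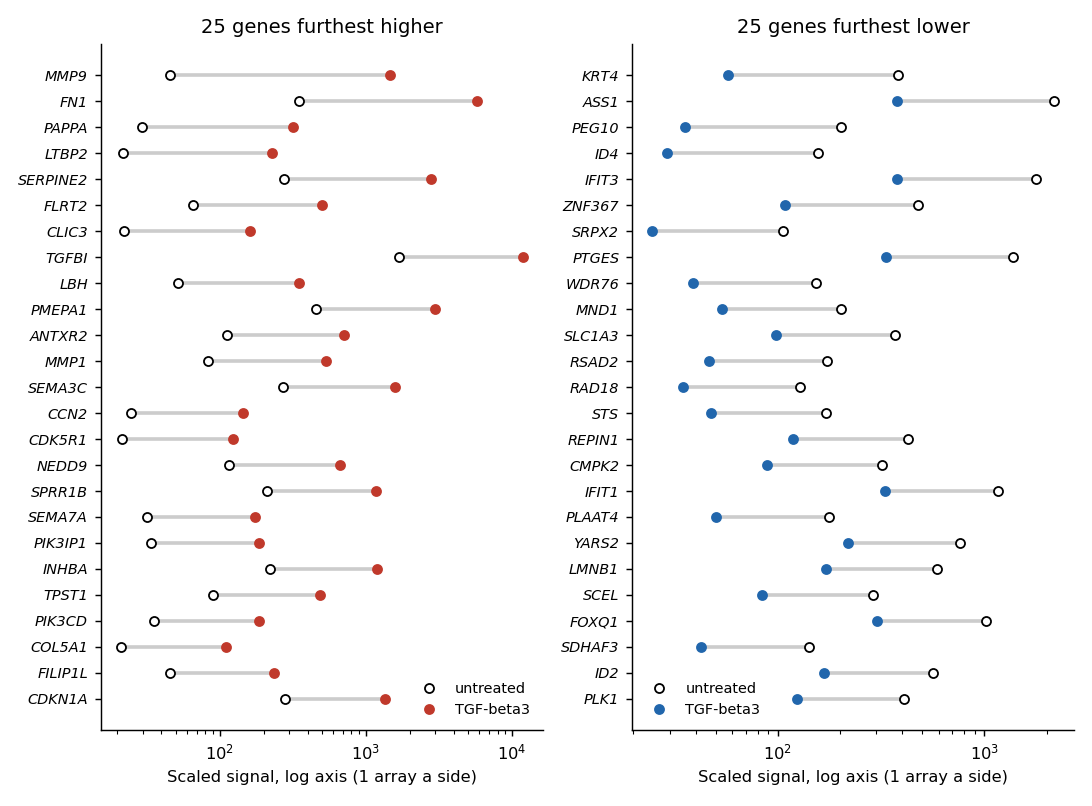
Scaled signals on a log axis of the 25 genes furthest higher (left, red) and the 25 furthest lower (right, blue) among genes above the floor on both LacZ arrays. Open circles are the untreated array and filled circles the TGF-beta3 array, 1 array a side. MMP9 spans 45.5 to 1464 and KRT4 380.9 to 57.4.

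Some called genes lie side by side in the genome, in the gene order of RefSeq's GRCh38.p14 annotation among measured genes. The matrix metalloprotease genes MMP7, MMP10, MMP1 and MMP13, neighbours on chromosome 11, were all at least 2-fold higher. MMP1, an interstitial collagenase, was at 83.9 and 531.4, and MMP13, another collagenase, at 16.6 and 54.8, which is at least 2.74-fold. Promoters of 300 bases, from 250 before to 50 after the start of the gene, were taken from the same RefSeq build for 298 of the higher, 303 of the lower and 7433 of all measured genes. They were searched on both strands. The AP-1 motif TGANTCA was in 8.72% of the promoters of higher genes, 4.29% of those of lower genes and 4.45% of all measured promoters. The SMAD motif CAGACA was in 18.5%, 9.57% and 11.4%, and GTCTAGAC in 0.34%, 0.33% and 0.13%. A match is a description of the letters and not a measured binding site. The median percentage of G and C was 64.0, 63.3 and 65.3 in the same order. The median ratio of observed to expected CG pairs was 0.734, 0.865 and 0.857. The part of this composition in the motif shares was not tested.

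Shown are the 3 higher genes with the largest ratio and an AP-1 match among the promoters drawn on. Higher genes without a promoter here, or on a chromosome left out, could not be chosen. The promoters are read 5′ to 3′ on the strand of the gene, with the matches in capitals. MMP10 lies at chr11:102780579-102780878, minus strand, PRR9 at chr1:153217334-153217633, plus strand and SPRR1B at chr1:153030953-153031252, plus strand. MMP10 and PRR9 hold 1 match each and SPRR1B holds 2.
MMP10: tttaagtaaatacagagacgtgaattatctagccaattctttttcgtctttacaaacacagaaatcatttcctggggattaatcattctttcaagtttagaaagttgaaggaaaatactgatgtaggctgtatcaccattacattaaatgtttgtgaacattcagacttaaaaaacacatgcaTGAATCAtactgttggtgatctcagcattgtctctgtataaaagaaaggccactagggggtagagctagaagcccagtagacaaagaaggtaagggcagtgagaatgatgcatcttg
PRR9: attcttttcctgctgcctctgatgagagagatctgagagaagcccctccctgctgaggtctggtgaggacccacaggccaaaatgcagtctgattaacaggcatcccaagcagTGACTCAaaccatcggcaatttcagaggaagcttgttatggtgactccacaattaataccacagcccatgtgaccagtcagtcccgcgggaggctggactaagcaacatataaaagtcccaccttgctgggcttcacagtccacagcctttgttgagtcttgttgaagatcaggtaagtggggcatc
SPRR1B: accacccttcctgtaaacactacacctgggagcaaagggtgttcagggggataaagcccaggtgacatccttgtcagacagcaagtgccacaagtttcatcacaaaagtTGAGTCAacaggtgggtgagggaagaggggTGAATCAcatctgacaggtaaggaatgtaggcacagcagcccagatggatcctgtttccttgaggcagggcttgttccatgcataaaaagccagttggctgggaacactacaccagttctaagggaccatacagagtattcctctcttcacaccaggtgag

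SPRR1B, a small proline-rich protein of the cornified envelope, was at 210.0 untreated and 1171 with TGF-beta3, a log2 ratio of 2.48. It belongs to a group of barrier genes that split. Of 21 measured cornified envelope and barrier genes 3 were at least 2-fold higher and 2 at least 2-fold lower, with a median of 0.45. SPRR1A was at 81.2 and 323.5 and CST6, a cysteine protease inhibitor of the skin barrier, under the floor and at 91.7, at least 4.58-fold. IVL, involucrin, was at 264.1 and 503.3, under 2-fold. In the other direction SCEL, sciellin, was at 288.1 and 83.5 and FLG, filaggrin, at 181.8 and 61.4. On the HRAS arrays 5 of 18 tested members rose and 3 fell. SPRR1B, SPRR1A, CST6 and IVL were among those that rose, and SCEL and FLG among those that fell.

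Keratins were also divided. KRT4, a keratin of mucosal epithelium, was the lowest gene above the floor on both arrays, at 380.9 untreated and 57.4 with TGF-beta3, 6.64-fold apart, and it fell on the HRAS arrays, with a log2 change of -2.71 ± 0.22 (SE). KRT16, a keratin of activated epidermis, was at 32.4 and 95.9 and rose on the HRAS arrays. KRT18 and KRT19, keratins of simple epithelium, were at 5348 and 8362 and at 4956 and 8120. Both are bright genes and neither passed on the HRAS arrays. The list median was 0.65 and 0.27 with the intensity trend removed.

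Among genes that shape the cytoskeleton and its attachment, 6 of 49 measured actin filament and adhesion plaque genes were at least 2-fold higher and none lower, with 41 ratios above 0 and a median of 0.36. NEDD9, a scaffold of focal adhesions, was at 116.9 and 672.2. TAGLN, transgelin, was at 72.1 and 327.1, and GSN, gelsolin, which severs actin filaments, at 210.3 and 811.1. TPM1, a tropomyosin, was at 1166 and 3442 and CALD1, caldesmon, at 332.1 and 935.7. All 5 rose on the HRAS arrays, where 22 of 51 tested members rose and none fell. TUBA1A, an alpha-tubulin, was at 10.9 and 75.8 and KIF3C, a kinesin that is not part of the mitotic set, at 34.1 and 165.7. KIF3C was the 1 kinesin at least 2-fold higher, and 9 of 22 measured kinesins were at least 2-fold lower.

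Of 15 measured genes with integrin symbols 2 were at least 2-fold higher and 1 lower. The lower one was ITGB3BP, at a log2 ratio of -1.095, which is not an integrin subunit. Of 4 laminins 1 was higher. Of 21 members of a list of cadherins and immunoglobulin-type surface molecules 2 were higher and 1 lower. The higher ones were CDH3 and CD274, and CD274 is an immune checkpoint ligand. In lists this short, such counts lie few genes away from the shares of all measured genes (4.25% higher, 4.36% lower). Integrin ITGA5, the fibronectin receptor subunit, was at 97.5 and 352.9 and ITGA6, the laminin receptor subunit, at 2059 and 4873. LAMB3, a laminin chain of the epidermal basement membrane, was at 1426 and 6588. PCDH7, a protocadherin, was lower, at 490.7 and 152.9, and CDH3, P-cadherin, was at 1959 and 3977.

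Guidance molecules known from axons were among the largest gains. SEMA3C, a secreted semaphorin, was at 270.1 untreated and 1595 with TGF-beta3, a log2 ratio of 2.56, and its other probe set gave 2.84. SEMA7A, a membrane-anchored semaphorin, was at 31.7 and 175.9. Both rose on the HRAS arrays. UNC5B, a netrin receptor, was lower, at 125.3 and 58.5, and fell there, but its other probe set gave a log2 ratio of 0.54 in the LacZ pair. EPHA4, an ephrin receptor kinase counted in another list, was at 60.5 and 248.7. Of 19 measured receptor tyrosine kinases it was the 1 at least 2-fold higher, and 1 was lower. The axon guidance list as a whole had 2 of 23 members at least 2-fold higher and 1 lower.

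Enzymes that build and sulfate glycosaminoglycans had 5 of 31 measured members at least 2-fold higher and none lower, with a median of 0.40. HAS2, which makes hyaluronan, was at 190.5 and 666.4. XYLT1, which starts the chains on proteoglycans, was at 6.7 and 86.0, at least 4.30-fold. CHST11, a chondroitin sulfotransferase, was at 125.6 and 302.6 and HS3ST2, a heparan sulfotransferase, at 185.3 and 408.5. HAS2, CHST11 and HS3ST2 rose on the HRAS arrays, where 14 of 32 tested members rose and 1 fell. XYLT1 was not tested there. TPST1, which sulfates tyrosines of secreted proteins, was at 89.7 and 486.0. Among protein cores, SPOCK1 was at 174.7 and 587.2, and TGFBR3, the TGF-beta coreceptor betaglycan, was lower, at 71.6 and 19.6, at least 3.58-fold. HSPG2, perlecan, was at 28.8 and 68.8 in the LacZ pair but had log2 ratios of 0.12 and 0.30 in the HRAS G12V and N116Y pairs and did not pass.

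Genes of the secretory route lay slightly above 0. Of 37 measured genes of ER exit and Golgi traffic, 31 had a ratio above 0, with a median of 0.33 and 2 at least 2-fold higher. KDELR3, a receptor that returns proteins to the ER, was at 64.8 and 140.1, and CREB3L2, a membrane-bound transcription factor of the secretory pathway, at 51.2 and 103.2. The lysosome and autophagy list had a median of 0.47 (0.42 with the intensity trend removed), with 34 of 45 ratios above 0 and 1 at least 2-fold. That gene, WIPI1, which binds forming autophagosomes, was at 30.0 and 84.0. Of these lists, 9 of 37 and 16 of 46 tested members rose on the HRAS arrays, and none and 2 fell.

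Cholesterol synthesis genes lay above 0 in most cases, mostly under 2-fold. Of 27 measured members 25 had a ratio above 0, with a median of 0.56, and 2 were at least 2-fold higher. HMGCS1, an early enzyme of the route, was at 886.9 untreated and 2160 with TGF-beta3, and STARD4, a carrier of cholesterol, at 253.3 and 622.9. INSIG1, which holds back the activation of sterol regulatory factors, was at 834.7 and 1486, and SC5D, a late enzyme, at 1085 and 2044. All 4 rose on the HRAS arrays, where 14 of 27 members rose and 2 fell. The median was 0.77 in the HRAS G12V pair and 0.28 in the HRAS N116Y pair. The difference between vectors was not tested.

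**Figure D4:**
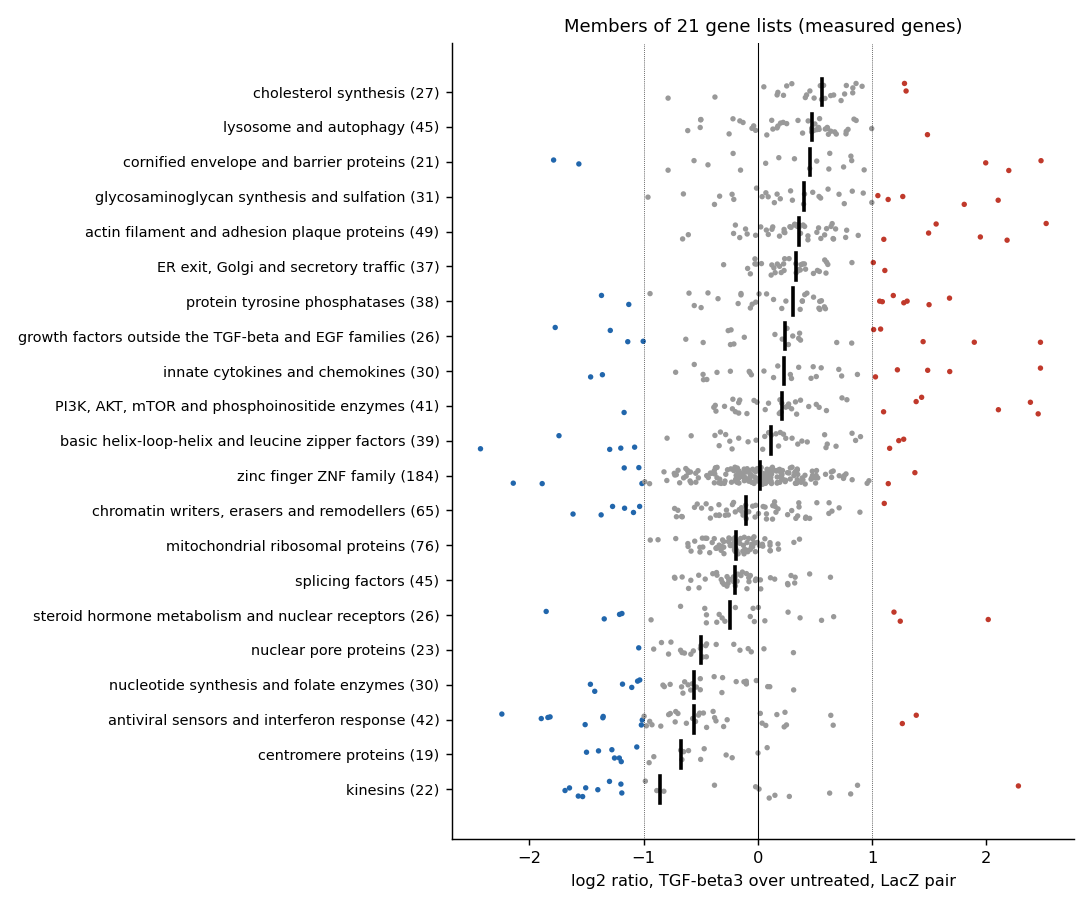
Log2 ratios of TGF-beta3 over untreated in the LacZ pair for the measured members of 21 gene lists, 1 point a gene, with the number of genes in brackets and the list median as a black bar. Red and blue points were at least 2-fold higher or lower, beyond the dotted lines. Medians run from 0.56 for cholesterol synthesis to -0.85 for kinesins, and the points are not replicates.

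Signalling genes outside the SMAD route included components with opposed roles. PIK3CD, a catalytic subunit of PI3 kinase, was at 35.5 and 185.5, while PIK3IP1, an inhibitor of PI3 kinase, was at 34.0 and 186.3. INPP4B, a phosphoinositide phosphatase, was at 650.6 and 1758, SGK1, a kinase downstream of PI3 kinase, at 103.2 and 269.7, and PHLPP1, a phosphatase that acts on AKT, at 181.6 and 80.7. All 5 passed on the HRAS arrays in the same direction. In the list 6 of 41 were at least 2-fold higher and 1 lower. PIK3IP1 had log2 ratios of 2.45 in the LacZ pair, 1.61 in the HRAS G12V pair and 1.11 in the HRAS N116Y pair.

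Protein tyrosine phosphatases had 7 of 38 measured members at least 2-fold higher and 2 lower. PTPRB, a receptor phosphatase, was at 167.8 and 474.3, and PTPRK, a receptor phosphatase that acts on the EGF receptor, at 671.0 and 1527. DUSP18 was at 17.2 and 64.0, at least 3.20-fold. The lower members were CDC25A, which activates cyclin-dependent kinases, at 179.7 and 69.6, and PTP4A1, at 881.0 and 402.7, whose 3 other probe sets gave only -0.37 to 0.15. On the HRAS arrays 10 of 39 rose and 6 fell. AKAP12, a scaffold of protein kinase A, was at 51.3 and 214.9 and rose there.

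Ligands for other cells were among the called genes. Of 26 measured growth factors outside the TGF-beta and EGF families 5 were at least 2-fold higher and 4 lower. EDN1, endothelin, was at 44.8 and 166.6, CCN1, a matricellular protein, at 347.0 and 946.4, and CCN3, another CCN protein, lower at 77.6 and 22.7. KITLG, the ligand of the KIT receptor on melanocytes, was at 750.1 and 306.6. EDN1 and CCN1 rose and KITLG fell on the HRAS arrays, and CCN3 was not tested. Of 30 measured cytokines and chemokines 5 were at least 2-fold higher and 2 lower. IL1A was at 119.4 and 382.6, IL6 at 26.3 and 73.7 and CCL2, a monocyte chemokine, at 50.6 and 118.0. TNFSF15, a TNF family ligand, was lower, at 482.3 and 188.0. CD274, an immune checkpoint ligand, was at 42.8 and 118.4. Each of these 5 genes passed on the HRAS arrays in the same direction. CXCL8, a neutrophil chemokine, was at 741.5 and 769.7 in the LacZ pair, but rose on the HRAS arrays by 0.91 ± 0.19 (SE); the difference was not tested.

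The interferon and antiviral list held some of the furthest losses of the LacZ pair. Of 42 measured genes 9 were at least 2-fold lower, 2 at least 2-fold higher and 31 below 0, with a median of -0.56. IFIT3, an interferon-induced protein that binds antiviral adaptor proteins, was at 1776 untreated and 375.8 with TGF-beta3, 4.73-fold apart, and its other probe set gave -1.49. IFIT1, which binds viral RNA, was at 1159 and 328.7 and IFIT2 at 963.2 and 377.1. RSAD2, viperin, was at 172.2 and 46.3 and CMPK2, a mitochondrial nucleotide kinase, at 317.9 and 89.0. TLR3, a sensor of double-stranded RNA, was at 214.6 and 75.3. Among measured genes IFIT2, IFIT3 and IFIT1 are neighbours on chromosome 10, and CMPK2, RSAD2 and ID2 on chromosome 2.

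The higher members were IRF9, a subunit of the interferon-activated factor ISGF3, at 90.4 and 236.5, and ISG20, an exonuclease, at 46.6 and 112.0. ISG15, a ubiquitin-like protein induced by interferon, was at 657.6 and 462.1, under 2-fold. Most losses were of similar size in the HRAS G12V pair and smaller in the HRAS N116Y pair. IFIT3 had log2 ratios of -2.24 (LacZ), -1.86 (HRAS G12V) and -0.12 (HRAS N116Y). RSAD2 had -1.90, -1.71 and -0.02 in the same order, and IFIT2 -1.35, -1.82 and -0.04. TLR2, a sensor of bacterial lipoproteins, had -1.02, -0.26 and 0.04 and did not pass on the HRAS arrays. The list median was -0.56, -0.42 and -0.09. The difference between vectors was not tested. IFIT1, IFIT2, IFIT3, RSAD2, CMPK2 and TLR3 fell in the additive fit, which gives 1 change for both HRAS pairs and does not use a gene's own disagreement between them. In that fit 13 of 43 tested members fell and 5 rose. As all samples carried an adenovirus, no level without infection is known.

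The IFIT3 promoter is shown because the gene is the furthest loss of that list (chr10:89327747-89328046, plus strand, capitals mark TTTGAA and 2 matches to TTTCNNTTT, a short form of the interferon-stimulated response element). It is also 1 of the 3 lower genes with the lowest ratio and a TTTGAA match among the promoters drawn on. The motif TTTCNNTTT, added after the data were seen, was in 24 of the 32 promoters of the antiviral list, in 6 of the 8 of its lower members and in 7.14% of all measured promoters. The share was thus the same in the lower members as in the whole list. Promoters of the list and of its lower members had a lower median percentage of G and C than all measured promoters. The part of this composition in the motif shares was not tested.
IFIT3: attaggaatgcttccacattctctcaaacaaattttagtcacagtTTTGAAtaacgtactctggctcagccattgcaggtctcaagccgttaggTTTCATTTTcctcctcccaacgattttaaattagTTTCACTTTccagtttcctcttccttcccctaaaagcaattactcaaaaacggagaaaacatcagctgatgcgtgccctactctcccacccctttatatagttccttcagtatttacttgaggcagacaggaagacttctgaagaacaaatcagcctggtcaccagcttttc

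Other lists of genes that serve DNA replication and mitosis had medians below 0. Centromere proteins had 7 of 19 measured members at least 2-fold lower (median -0.68) and all 16 that passed on the HRAS arrays fell. Kinesins had a median of -0.85. KIF18A, which shortens microtubules at the metaphase plate, was at 393.7 and 122.3 and KIF11, a motor of the spindle, at 553.9 and 191.4. Nucleotide and folate enzymes had 6 of 30 at least 2-fold lower and 27 of 30 below 0, with a median of -0.56, and 19 fell on the HRAS arrays. TYMS, thymidylate synthase, was at 1705 and 634.0 and DCK, deoxycytidine kinase, at 362.8 and 131.5. Of 23 nuclear pore proteins 1 was at least 2-fold lower, a share like that of all measured genes (4.36%), while 21 had a ratio below 0 (median -0.50) and 11 fell on the HRAS arrays.

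The cell-cycle homology region (CHR) motif TTTGAA was in 26.7% of the promoters of lower genes, 8.72% of those of higher genes and 10.1% of all measured promoters. CCAAT was in 46.9%, 36.2% and 38.1%, and both together in 14.9%, 4.36% and 4.47%. As for the other motifs, the part of base composition in these shares was not tested. Of 19 division reference genes with a promoter, 15 held CCAAT and 5 held TTTGAA. PLK1, a mitotic kinase, was at 408.4 and 123.5 and MKI67, a proliferation marker, at 488.6 and 175.9. Their promoters hold both motifs and were chosen after the values were seen, as the list's lowest such genes among the promoters drawn on. PLK1 lies at chr16:23678639-23678938, plus strand, and MKI67 at chr10:128126374-128126673, minus strand. PTGES lies at chr9:129752993-129753292, minus strand, and SLC1A3 at chr5:36596338-36596637, plus strand. With IFIT3 they are the 3 lower genes with the lowest ratio and a TTTGAA match among the promoters drawn on. Neither PTGES nor SLC1A3 is a division gene. Capitals mark CCAAT, on either strand, and TTTGAA for PLK1 and MKI67, and TTTGAA for PTGES and SLC1A3. In MKI67 a TTTGAA match and an inverted CCAAT overlap.
PLK1: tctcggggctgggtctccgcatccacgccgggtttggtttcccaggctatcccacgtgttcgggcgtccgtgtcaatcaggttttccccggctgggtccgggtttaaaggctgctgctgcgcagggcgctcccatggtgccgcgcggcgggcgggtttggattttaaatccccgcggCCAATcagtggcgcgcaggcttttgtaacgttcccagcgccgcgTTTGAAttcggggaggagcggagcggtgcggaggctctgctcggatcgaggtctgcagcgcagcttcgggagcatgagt
MKI67: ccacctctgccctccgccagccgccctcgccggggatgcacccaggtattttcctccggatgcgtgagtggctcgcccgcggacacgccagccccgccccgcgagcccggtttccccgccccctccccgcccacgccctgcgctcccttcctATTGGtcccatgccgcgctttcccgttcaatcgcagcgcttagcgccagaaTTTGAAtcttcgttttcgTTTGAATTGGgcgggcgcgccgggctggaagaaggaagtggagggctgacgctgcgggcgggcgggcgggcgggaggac
PTGES: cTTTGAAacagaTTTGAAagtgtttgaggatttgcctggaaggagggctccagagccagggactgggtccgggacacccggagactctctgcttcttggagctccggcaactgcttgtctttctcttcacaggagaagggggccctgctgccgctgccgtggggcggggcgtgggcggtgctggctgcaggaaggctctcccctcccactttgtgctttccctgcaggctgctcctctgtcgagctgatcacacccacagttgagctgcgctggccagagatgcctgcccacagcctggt
SLC1A3: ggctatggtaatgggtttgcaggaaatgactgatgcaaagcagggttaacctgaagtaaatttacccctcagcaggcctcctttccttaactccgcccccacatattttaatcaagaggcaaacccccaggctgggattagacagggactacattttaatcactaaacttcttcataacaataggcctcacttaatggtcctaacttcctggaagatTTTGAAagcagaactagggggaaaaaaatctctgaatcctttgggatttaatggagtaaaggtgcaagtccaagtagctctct

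PTGES, prostaglandin E synthase, was at 1377 untreated and 333.1 with TGF-beta3, and its other probe set gave -1.89. The prostaglandin receptors PTGER4 and PTGER2 were at 195.1 and 94.6 and at 110.7 and 59.1. PTGES fell on the HRAS arrays, with a log2 change of -2.24 ± 0.19 (SE), and PTGER2 fell as well. PTGER4 did not pass (adjusted p = 0.484, limma), with log2 ratios of -0.97 and 0.47 in the HRAS G12V and N116Y pairs. SLC1A3, a glutamate and aspartate transporter, was at 367.5 and 98.1 and fell.

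Metabolic genes with large single losses included ASS1, argininosuccinate synthase, which makes the precursor of arginine, at 2178 and 377.0, 5.78-fold apart. CTH, which makes cysteine, was at 553.8 and 206.5 and GSR, glutathione reductase, at 417.9 and 158.6. All 3 fell on the HRAS arrays. The amino acid list as a whole had 2 of 27 at least 2-fold lower and none higher. AQP3, a water and glycerol channel of keratinocytes, was at 1248.5 and 444.3, and SCNN1A, a subunit of the epithelial sodium channel, at 246.8 and 87.2. CLIC3, a chloride intracellular channel protein, was higher, at 22.3 and 161.5. Each of the latter 3 passed on the HRAS arrays in the same direction.

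Retinoid and steroid genes lay on both sides. DHRS9, a retinol dehydrogenase, was at 103.3 and 10.1, at least 5.16-fold lower, and CYP26B1, which breaks down retinoic acid, was at 55.3 and 112.6. PLAAT4, a retinoid-inducible acyltransferase, was at 176.0 and 50.3. STS, steroid sulfatase, was at 170.7 and 47.3. CYP27B1, which makes active vitamin D, was at 124.3 and 295.1 and CYP24A1, which degrades it, at 21.6 and 87.4. PPARD, a nuclear receptor for fatty acids, was at 216.0 and 493.3. All 7 passed on the HRAS arrays in the same direction.

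Among transcription factors all 4 ID genes, inhibitors of basic helix-loop-helix factors, were at least 2-fold lower. ID1 was at 4986 and 2031, ID2 at 561.2 and 168.0, ID3 at 1271 and 553.6 and ID4 at 156.0 and 29.0. All 4 fell on the HRAS arrays. The log2 ratio of ID4 was -2.43 in the LacZ pair, -3.02 in the HRAS G12V pair and -0.67 in the HRAS N116Y pair. JUN and JUNB, subunits of AP-1, were at 192.9 and 467.3 and at 100.4 and 236.2. SOX4 was at 542.9 and 1732 and SOX9 at 619.5 and 1854. FOXQ1, a forkhead factor, was at 1014.5 and 300.4, KLF5 at 731.6 and 293.5 and KLF7 at 106.4 and 305.1. DLX2, a homeobox factor, was at 27.7 and 122.0. JUN, JUNB, SOX4, SOX9, KLF7 and DLX2 rose and FOXQ1 and KLF5 fell. ZNF367 was at 478.6 and 108.6, but the ZNF family as a whole had 2 of 184 at least 2-fold higher and 5 lower, with a median of 0.02.

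Among 13 measured clock genes 2 reached 2-fold above and 1 reached 2-fold below the untreated array. BMAL1, the activator of the clock, was at 81.3 and 227.9 and BHLHE40, a repressor, at 460.7 and 1356. DBP, a clock output factor, was at 55.2 and 19.8, at least 2.76-fold lower, and PER2 was at 401.2 and 247.2. BMAL1 and BHLHE40 rose and DBP and PER2 fell on the HRAS arrays. Of 13 clock genes tested there 2 rose and 2 fell, near the shares of all tested genes (11.9% and 12.1%). With 1 time of harvest, no phase can be read. Of 65 measured chromatin genes 6 were at least 2-fold lower, among them HMGB2 at 2458.5 and 801.7, the helicase HELLS at 380.0 and 147.0 and the histone methyltransferase EZH2 at 236.0 and 111.0. The 1 higher member was HMGA2, an architectural chromatin protein, at 1032 and 2223. HMGB2, HELLS and EZH2 fell and HMGA2 rose on the HRAS arrays.

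Of 10 measured host transcripts of small RNAs 3 were at least 2-fold higher and 1 lower, and on the HRAS arrays 4 rose and 2 fell. In the LacZ pair 9 of the 10 were above the floor on both arrays. MIR181A2HG, a microRNA host transcript measured through its treated array alone, was at 2.7 and 61.3, at least 3.07-fold. MIR205HG was at 132.7 and 309.9 and MIR100HG at 82.8 and 166.7. DLEU2 was lower, at 187.5 and 81.7. All 4 passed on the HRAS arrays in the same direction. These values are of the host transcripts and say nothing of the mature miRNAs. PEG10, a paternally expressed imprinted gene, was at 203.0 and 35.7, 5.69-fold apart, while the 8 other imprinted genes measured lay under 2-fold.

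Several housekeeping lists held no gene 2-fold apart, though their medians were not all near 0. None of 76 mitochondrial ribosomal proteins was 2-fold apart, with a median of -0.19 and 64 ratios below 0, and 16 fell on the HRAS arrays. None of 45 splicing factors was 2-fold apart (median -0.20). None of 71 respiratory chain genes was either, with a median of 0.10 that becomes -0.05 with the intensity trend removed. Cytosolic ribosomal proteins had a median of 0.46 in the LacZ pair, 0.05 with the trend removed and -0.03 with quantile normalisation, and 49 of 54 ratios were above 0. The median was 0.03 in the HRAS G12V pair and 0.21 in the HRAS N116Y pair, and on the HRAS arrays none of 54 rose and 1 fell. S100A2, a bright calcium-binding protein, was at 6390 and 13272, a log2 ratio of 1.05 that is 0.52 with quantile normalisation. KRT14 was at 5953 and 9614, with 0.69 and 0.22 by the same settings.

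The LacZ pair was set beside the other vectors for its called genes. Of the 377 higher genes, 355 had the same direction in both HRAS pairs (94.2%) and 186 were at least 2-fold higher in both. A further 105 were so in the HRAS G12V pair alone and 19 in the HRAS N116Y pair alone. Of the 387 lower genes, 363 had the same direction in both (93.8%), 172 were at least 2-fold lower in both, 91 in the HRAS G12V pair alone and 50 in the HRAS N116Y pair alone. The median log2 ratio of the higher genes was 1.33 in the LacZ pair, 1.46 in the HRAS G12V pair and 1.11 in the HRAS N116Y pair. Chosen the other way, 244 genes were at least 2-fold higher in both HRAS pairs. Of these 243 had the same direction in the LacZ pair and 188 were at least 2-fold higher there. Of 213 genes lower in both, 212 and 174 were.

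Some LacZ ratios lay apart from both HRAS pairs. YARS2, a mitochondrial tyrosyl-tRNA synthetase, was at 763.7 untreated and 218.6 with TGF-beta3 in the LacZ pair, and at 206.2 to 311.0 on the other 4 adenovirus arrays, so the high value is that of the untreated LacZ array. STX17-DT, a divergent transcript of STX17, was at 50.7 and 155.1, and at 45.7 to 76.1 on the other arrays. ITPR2, a calcium release channel, was at 50.7 and 116.8 in the LacZ pair, and its other probe set gave a log2 ratio of 0.12. None of these 3 passed on the HRAS arrays. E2F2, an activator of replication genes, was lower in all 3 pairs but less so with LacZ, at 167.2 and 76.4, a log2 ratio of -1.13 against -2.06 and -2.17. LINC02551, a noncoding RNA, was higher in all 3, at 0.93 with LacZ and at 1.74 and 2.91 with HRAS G12V and N116Y. These differences were not tested, and with 1 array a side they cannot be told apart from the noise of an array.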

How the data were processed

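Biotin-labelled RNA of 8 samples was read on Affymetrix arrays, 1 for each sample, per the labels. The authors deposited a linear intensity for every probe set, computed with MAS5 5.0 per the submitters' processing notes. Detection calls were not used here, and precision is limited by there being 1 array a group.

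Each array was rescaled to a 2% trimmed mean of 100, which the values already had to within rounding. Signals under 20 were then raised to 20, and log2 was taken, which understates the change of dim genes. Of 54675 probe sets, 41097 had 1 gene symbol in the platform annotation, 1801 several and 11777 none, and 41043 matched RefSeq's gene table. A gene's probe set was the single-symbol one that was brightest on average over the 6 adenovirus arrays. A gene counted as measured at a signal of 50 or more on 1 LacZ array, and as called at 2-fold.

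The fit of the 4 HRAS arrays used limma 3.58.1 (R 4.3.3) with a trended eBayes, on genes whose signal reached 50 on 2 or more of them, at an adjusted p under 0.05, and was tested on simulated data whose spread was set to that of the fitted trend, so that it does not test the trend itself. The 1 residual degree of freedom of the fit is the difference in TGF-beta3 response between the HRAS G12V and N116Y pairs. Its p-values therefore reflect that difference, smoothed over genes into the trend, with any array noise in it. Nothing in the labels separates cultures, so no spread among replicate cultures can be read from them.

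The comparison and the gene lists were chosen with earlier results of these data known. Named genes were the 25 furthest in each direction, up to 10 a direction at the floor on 1 array, up to 8 a direction among genes with signals of 1000 or more, up to 6 of each list, and up to 8 a direction lying apart from both HRAS pairs. MMP7, MMP13, PTP4A1, CXCL8, IFIT2, ISG15, ISG20, OAS1, TLR2 and the genes of the closing section were named after their values were seen. Alternatives were quantile normalisation, centring, a floor of 50, an added 16 with no floor, the mean of all probe sets, another choice of probe set, a filter of 100 or none, and other limma settings. Lowess removal of the intensity trend (fraction 0.3) and robust eBayes were added after seeing the data. A group of genes is not reported here.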

Additional observations from a re-analysis of the deposited data

Results flagged for a closer look

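For 3 genes called in the LacZ pair, the log2 ratio was at least 2-fold the other way in the HRAS N116Y pair. GDPD3 was 1.05 in the LacZ pair and -1.10 in the HRAS N116Y pair. LINC01089, a noncoding RNA, was 1.05 and -1.15. MXRA5, a matrix-associated protein, was lower in the LacZ pair, at -1.04, and higher in the HRAS N116Y pair, at 1.20. Each value comes from 1 array a side and the difference was not tested.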

How the results depend on the processing

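The labels number no replicates, and the fit of the HRAS arrays pairs them by vector. Over the other settings, the count of genes higher in the LacZ pair ran from 228 to 418 and the count of lower genes from 276 to 420. Averaging every probe set of a gene leaves 6742 measured genes. Then 228 were higher in the LacZ pair, and 339 rose and 412 fell on the HRAS arrays. Without the vector in the model the limma counts were 107 rising and 64 falling. With no filter on low signals limma gave 0 rising and 0 falling genes among 19775, with 988 and 1011 at an unadjusted p under 0.05; the cause was not tested. DYNC2LI1 turned from -1.36 to 0.48 when the probe set was chosen on the LacZ arrays. List medians of bright genes moved with quantile normalisation and with the intensity trend removed. Other settings moved list medians as well. When probe sets were averaged 26 moved and 58 did not, and without a filter 41 moved and 43 did not. Of the ratios of named genes, a floor of 50 moved 91 and left 426, and averaging moved 84 and left 320. Robust eBayes, eBayes without a trend, quantile normalisation, a floor of 50, 16 added and a filter of 100 kept both limma counts within 1.5 times. Genes near the floor of 20 have lower bounds only.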
